A study of Arabidopsis thaliana with 2 samples.

Results

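Small heat shock proteins that work inside organelles are represented here by 4 genes, each chosen by its probe set: ATHSP22.0 (AT4G10250) for the endoplasmic reticulum, AT5G51440 for the mitochondrion, AT1G52560 for the chloroplast or mitochondrion, and AT5G37670, listed as peroxisomal. They are 4 of the 9063 genes named by a probe set of their own, and 4 of the 16541 probe sets deposited. Below, a gene is called measured if a probe set named it alone in the annotation used. Genes not measured may still have values, under the 7062 probe sets with no name or the 340 with several. Compartments are those listed for the genes and were not measured. RNA came from rosette leaves of Arabidopsis thaliana, ecotype Columbia, from the double mutant KO-HsfA1d/A1e and from wild type, with 1 array for each genotype. Plants of both kinds were raised on MS medium at 100 µE m-2 s-1, with days of 16 h (25°C) and nights of 8 h (22°C). At 2 weeks of age both received 400 µE m-2 s-1 for 30 min, so high light is common to both arrays and no response to light can be read from them. The labels give neither the mutant alleles nor whether plants were pooled.

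Small heat shock proteins bind partly unfolded proteins and keep them from clumping until ATP-driven chaperones such as HSP70 refold them. Plants are unusual in sending members of this family into organelles, by means of targeting signals that the cytosolic members lack. Their genes are nearly silent in unstressed leaves and are switched on by heat shock factors, which bind heat shock elements in promoters. HsfA1d and HsfA1e are class A1 factors, which start this response in Arabidopsis.

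All 4 genes had the lower intensity in the mutant. The ratio of the deposited intensities was 10.9-fold for AT5G51440 and 6.04-fold for AT5G37670. For ATHSP22.0 and AT1G52560 the ratios were 34.9 and 18.2, but their mutant values cannot be told from background, so these are not measured sizes. With 1 array per genotype there is no SD and no test, and every difference describes these 2 arrays alone. A smaller share of cells holding a transcript and less transcript per cell cannot be told apart in leaf RNA.

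ATHSP22.0, the small heat shock protein of the endoplasmic reticulum, had an intensity of 26.1 in the mutant and 909.6 in wild type. Only 3.33% of probe sets were dimmer on the mutant array, where the limit of the lowest 5% was 31.9. On the scale of log2(intensity + 16), its difference, mutant minus wild type, was -4.46, and with 64 in place of 16 it was -3.43.

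AT1G52560, placed in the chloroplast or mitochondrion, had 36.5 in the mutant and 662.9 in wild type, a log2 difference of -3.69 with 16 added and -2.85 with 64. On the mutant array 6.21% of probe sets were dimmer. The files hold no detection calls, so the mutant values of this gene and of ATHSP22.0 cannot be told from background. The size of both differences depends on the constant added before the logarithm.

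AT5G51440, a mitochondrial member, had 464.9 in the mutant and 5057 in wild type, a log2 difference of -3.40. Its mutant value lay above 59.7% of the probe sets on that array. AT5G37670, listed as peroxisomal, had 963.3 in the mutant and 5818 in wild type, a log2 difference of -2.57. Its mutant value lay above 77.6% of probe sets, so neither of these genes was at the dim end of the mutant array.

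**Figure D1:**
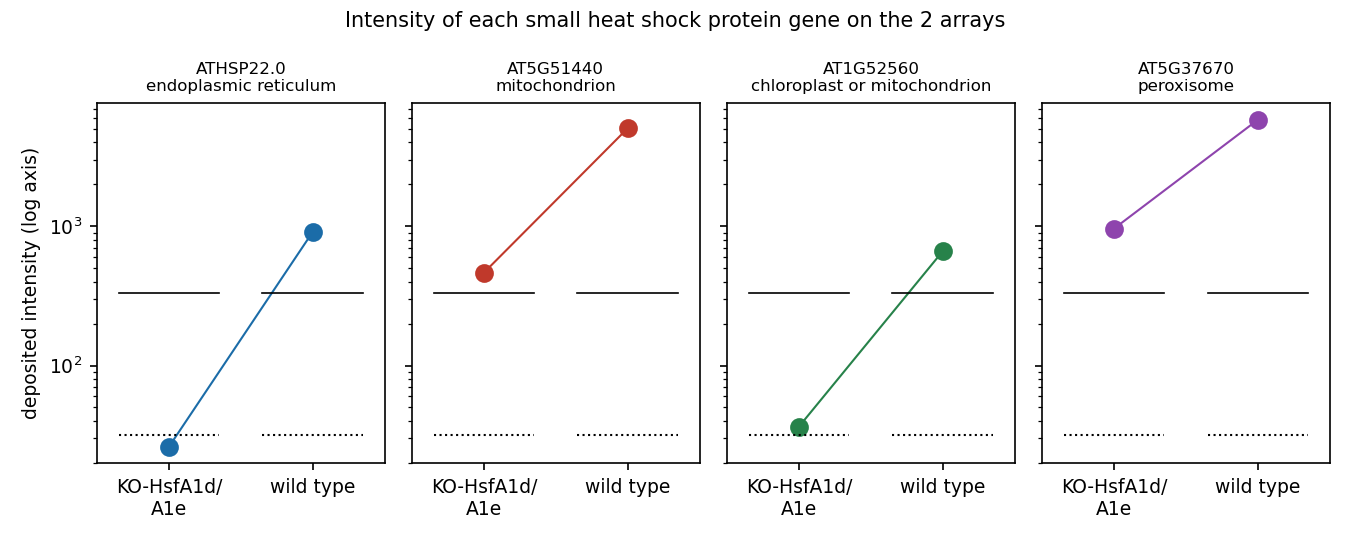
Deposited intensity (log axis) of the 4 genes on the mutant array (left) and the wild-type array (right), 1 panel per gene. Solid bars mark each array's median and dotted bars its lowest 5%. In the mutant, ATHSP22.0 (26.1) and AT1G52560 (36.5) lie at the dotted bar, while AT5G51440 (464.9) and AT5G37670 (963.3) lie above the median.

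A difference of 2-fold or more toward lower values in the mutant held for 4 of the 4 genes, against 2.28% of all 16541 probe sets. In the other direction, 0 of the 4 were at least 2-fold higher, against 0.768% of all. The median difference of the 4 was -3.55 (-3.06 with 64 added), beside 0.03 over all probe sets (0.02 with 64 added). Since the genes were picked with these results known, the counts are a description.

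An expression filter at the median of the mean log2 value, 8.44, kept AT5G51440 and AT5G37670 and left out the other two. Past that filter 1.38% of 8271 probe sets were at least 2-fold lower. Scatter is wider for dim probe sets, so each gene was also set beside the probe sets within 0.5 log2 units of its own mean. Among the 2978 around ATHSP22.0 the central 95% of differences ran from -1.02 to 0.64, and 1 probe set, its own, was as low as it. Around AT1G52560 the range was -1.03 to 0.65 over 2917 probe sets, with 2 as low, its own included. It was -0.68 to 0.50 over 1684 around AT5G51440, with 3 as low, and -0.75 to 0.50 over 1130 around AT5G37670, with 7 as low, counted in the same way. The windows of ATHSP22.0 and AT1G52560 were centred on 7.63 and 7.56, above their mutant log2 values of 5.4 and 5.71. Their ranges thus do not give the scatter at the dim end, where those mutant values lie. The 4 differences all lay below the ranges of their own windows. As the genes were picked with these results known, that is a description too.

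**Figure D2:**
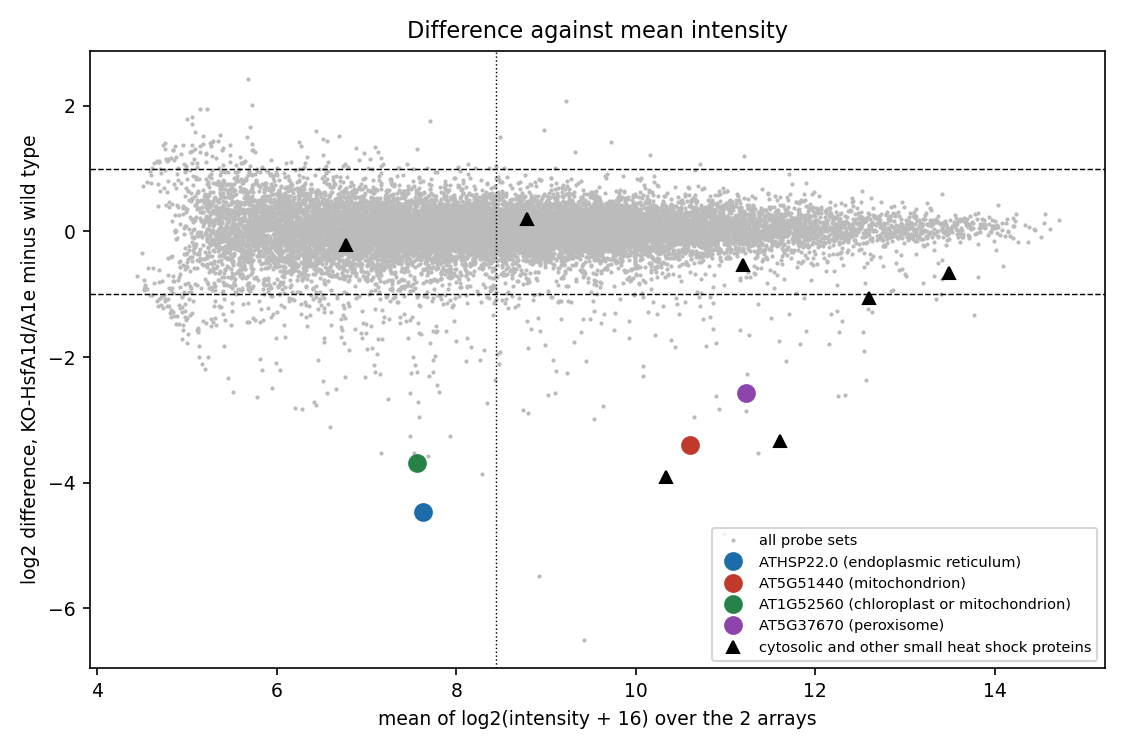
Log2 difference (mutant minus wild type) against the mean of log2(intensity + 16) for all 16541 probe sets (grey), the 4 organelle genes (coloured circles) and the 7 measured other small heat shock proteins (black triangles). Dashed lines mark 2-fold and the dotted line the expression filter. The 4 circles lie between -4.46 and -2.57, with 2 on each side of the filter.

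By compartment, the difference was -4.46 for the endoplasmic reticulum, -3.69 for the chloroplast or mitochondrion, -3.40 for the mitochondrion and -2.57 for the peroxisome with 16 added. The sizes of the first pair depend on the added constant, since their mutant values cannot be told from background. Among the 4 genes, ATHSP22.0 was the lowest with each constant tried (0, 1, 16 and 64), while AT1G52560 changed places with AT5G51440 at 64. Only the mitochondrial and peroxisomal genes can be placed by a measured size. The only error estimate in these data is the scatter between probe sets of 1 gene on the same arrays, an SD of 0.32 over 73 genes with a pair of probe sets, with a largest gap of 1.66. For the 13 such genes past the expression filter it was 0.20, with a largest gap of 0.56. Variation among plants or RNA preparations is not part of it. The gap between AT1G52560 and AT5G51440, 0.29, was under the SD of 0.32, which is that of 1 probe set's difference and not of a gap. The gap of 0.77 between ATHSP22.0 and AT1G52560, both under the filter, was under the largest gap of 1.66. The gap of 0.82 between AT5G51440 and AT5G37670, both past the filter, exceeded the largest gap of 0.56 over the 13 genes there. It was under the 1.66 over all 73. Each compartment rests on 1 gene, so gene and compartment cannot be told apart.

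With 64 added, ATHSP22.0 was at -3.43, AT5G51440 at -3.28 and AT1G52560 at -2.85, so the mitochondrial gene and the one of the chloroplast or mitochondrion changed places. With no constant they were at -5.12, -3.44 and -4.18. AT5G37670 had the smallest difference with each constant tried (0, 1, 16 and 64), between -2.59 and -2.52.

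**Figure D3:**
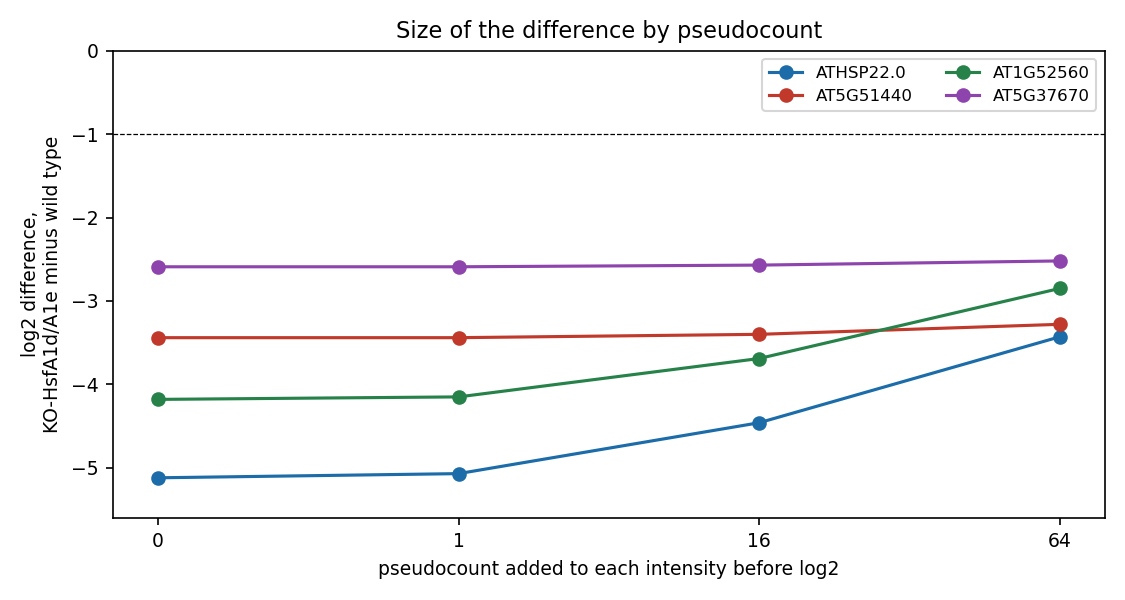
Log2 difference (mutant minus wild type) of the 4 genes for each constant added to the intensities before log2 (0, 1, 16 or 64). The bright AT5G51440 and AT5G37670 form nearly flat lines, while ATHSP22.0 moves between -5.12 and -3.43 and AT1G52560 between -4.18 and -2.85, crossing AT5G51440 at 64.

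The remaining small heat shock proteins of the plant act in the cytosol and nucleus or have less studied locations. They were taken as a list of 13 genes, of which 7 were measured. The other 6 may have values under probe sets with no name, so the counts and median here do not describe the whole family. A drop of 2-fold or more was seen for 3 of these 7, against 2.28% of all probe sets. A gain of that size was seen for 0, against 0.768%, and the median was -0.65. The class I cytosolic genes AT1G53540, with 317.5 in the mutant and 4984 in wild type (-3.91), and AT2G29500, with 965.2 and 9873 (-3.33), fell inside the range of the organelle genes. The third was AT2G19310, with 4284 in the mutant and 8907 in wild type (-1.05). The other 4 ran from -0.65 for AT1G54050, a class III member, through -0.54 for AT4G21870 and -0.22 for AT5G47600 to 0.20 for AT5G54660. Of the 7 others, 2 thus had a difference of -2.57 or lower. That limit is the smallest difference of the 4 organelle genes, so all 4 reach it by construction. AT5G37670, which sets it, ranked 37 from the lowest among all 16541 probe sets. No test of organelle against other small heat shock proteins was made. Of 6 organelle genes in the family list, AT4G25200 (mitochondrion) and AT4G27670 (chloroplast) were not analysed here, as no probe set named them in the annotation used. Probe sets with no name may hold their values, so the range and order by compartment cover the 4 genes alone. Among all probe sets, those ranked 1 and 2 from the lowest, at -6.5 and -5.48, had no name.

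Other chaperones of the same compartments were compared as whole lists. How many of each list were measured depends on the annotation, since only genes that a probe set named alone were counted. In the endoplasmic reticulum, 6 of 21 listed chaperones were measured, and 0 of the 6 were 2-fold lower or higher, with a median of -0.30. Over all probe sets the shares were 2.28% lower and 0.768% higher, so a count over 6 genes is too small to set against them. The lowest was AT5G07340, a calnexin that folds glycoproteins, with 273.8 in the mutant and 452.2 in wild type (-0.69). AT4G16660, an HSP70-like protein, had 527.9 in the mutant and 712.4 in wild type (-0.42). The highest was CRT1b, a calreticulin, with 1903 in the mutant and 1841 in wild type (0.05).

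In the chloroplast, 5 of 18 listed chaperones were measured, with a median of -0.26. Of these, 1 was at least 2-fold lower, against 2.28% of all probe sets, and 0 at least 2-fold higher, against 0.768%. The lower gene was Cpn60beta2, a subunit of the chaperonin that encloses and folds proteins, with 2812 in the mutant and 8537 in wild type (-1.60). Cpn60beta3, of the same chaperonin, had 447.8 in the mutant and 582.2 in wild type (-0.37). The highest was AT5G55220, a trigger factor that meets chains leaving the ribosome, with 1866 in the mutant and 1766 in wild type (0.08). For peroxisome import and protein quality control, 1 of 23 listed genes was measured, PEX4, which recycles the import receptor, with 1774 in the mutant and 1350 in wild type (0.39). None of the 11 listed mitochondrial chaperones was named alone by a probe set, so whether the file holds values for them is not known.

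**Figure D4:**
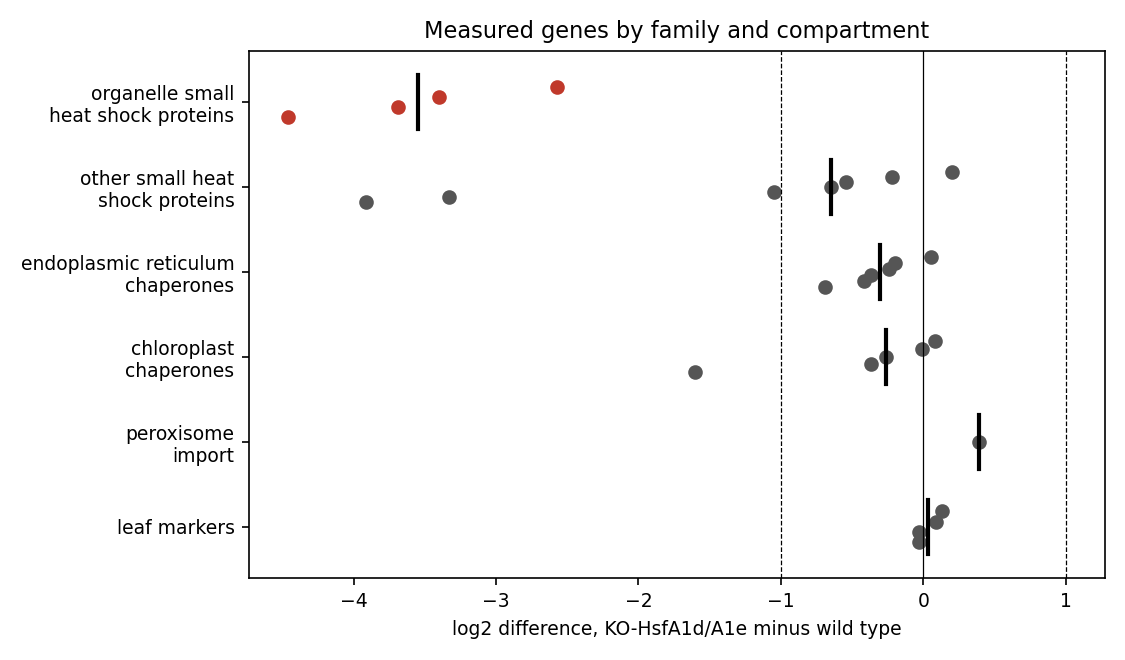
Log2 difference (mutant minus wild type) of each measured gene (points) and the list median (vertical bar), by gene family and compartment. Dashed lines mark 2-fold. The 4 organelle small heat shock proteins (-4.46 to -2.57) lie left of every measured chaperone of the endoplasmic reticulum (-0.69 to 0.05) and chloroplast (-1.60 to 0.08).

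The genes most like each of the 4 in their pair of values were sought among the singly named probe sets, by distance on the log2(intensity + 16) scale over the 2 arrays. The nearest to AT5G51440 was AT5G25450, a subunit of mitochondrial complex III, with 561.7 in the mutant and 4455 in wild type (distance 0.32). The next was the cytosolic AT1G53540 (distance 0.53). Among the singly named probe sets, ATHSP22.0 and AT1G52560 shared both of their nearest genes. AT3G47480, a calcium-binding EF-hand protein, had 41.9 in the mutant and 537.1 in wild type, at a distance of 0.87 from ATHSP22.0 and 0.33 from AT1G52560. AT1G35710, a leucine-rich repeat receptor-like kinase, had 52.5 in the mutant and 517.4 in wild type (distances 1.06 and 0.52). The mutant values of AT3G47480 and AT1G35710 are dim too, with the limit of the lowest 5% at 31.9. Without detection calls they cannot be told from background, and these distances depend on the constant of 16. For AT5G37670 the nearest were AT3G14200, a DnaJ-domain protein, with 1322 in the mutant and 3931 in wild type (distance 0.72), and the class I AT2G29500 (distance 0.76). Probe sets with no name were left out of this search, and some lay closer. An unnamed probe set with 876.5 in the mutant and 6464 in wild type was closer to AT5G37670 (963.3 and 5818). Another, with 38.6 and 610.7, was closer to AT1G52560 (36.5 and 662.9). With only 2 arrays, such likeness is the match of a pair of numbers.

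Of the 16 protein-coding genes that lie nearest the 4 genes on their chromosomes, up to 2 on each side, 4 were measured. Next to AT1G52560, AT1G52550 had 262.9 in the mutant and 249.2 in wild type (0.07), and AT1G52540 had 218.8 and 326.5 (-0.54). Next to AT5G37670, ARLA1A, a small GTPase of the ARL family, had 715.8 in the mutant and 578.8 in wild type (0.30). The dim AT5G37690 beyond it had 51.9 in the mutant and 13.4 in wild type (1.21). Of these 4 neighbours, 0 were at least 2-fold lower, against 2.28% of all probe sets, and 1 was at least 2-fold higher, against 0.768%. Counts over 4 genes are too small to set against these shares.

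The arrays were alike in their general level, with medians of 331.9 in the mutant and 334.1 in wild type. Of 7 leaf markers, 4 were measured, and their summed intensity was 51842 in the mutant and 50161 in wild type, with differences between -0.03 and 0.13. The 1 measured root marker of 3, PYK10, had 3758 in the mutant and 2555 in wild type (0.55), and its part in the results was not tested. HsfA1d, HsfA1e and HsfA2 had no probe set naming them in the annotation used, so the genotype labels were not checked against the targeted genes.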

How the data were processed

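Per the labels' protocols, Sepasol-RNA I was used to extract RNA, and 100 ng of total RNA served to prepare biotin-labelled cRNA for Affymetrix arrays. The deposited file holds a linear intensity for each probe set on each array. How the authors summarized, background-corrected, scaled or filtered the probe sets is not stated in the labels. The number of arrays, 1 per genotype, limits the precision.

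Names came from GEO's platform annotation, with symbols brought up to date by Entrez identifier from the gene table of TAIR10.1. Of 16541 probe sets, 9139 had 1 symbol, 340 several and 7062 none, and 9095 of the 9139 matched the table. A gene with several probe sets was taken by its brightest. The genome build of the values is not given, so no coordinates are printed.

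Differences were taken on the scale of log2(intensity + 16), with wild type subtracted from mutant. Quoted folds are ratios of intensities. Sizes were counted at 2-fold over all probe sets, with no test. Genes named are the 4 members, all measured small heat shock proteins, the 2 lowest and 1 highest of each compartment list, and the 2 most alike genes per member. Markers and chromosome neighbours are named besides these. The genes and lists were chosen with earlier results of these data known. The counting code was run on simulated data for mutant against wild type, with 200 probe sets of 16541 set 4-fold lower. Of these, 200 were recovered as deposited and 199 after quantile normalization. The simulated noise was narrower than the SD of 0.32 between probe sets of 1 gene. Near-full recovery was thus fixed by the settings, and the run checks the code alone. Alternatives were median centring, quantile normalization, loess (span 0.3), pseudocounts of 0, 1 and 64, the expression filter, thresholds of 1.5-fold and 3-fold, and leaving out probe sets ending in _s_at or _x_at. Python 3.11.15, pandas, numpy and statsmodels were used.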

Additional observations from a re-analysis of the deposited data

How the results depend on the processing

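No paired analysis was possible because there is a single array, replicate 1, for either genotype, and no replicate could be left out. All 24 recomputed differences of the 4 genes stayed at least 2-fold lower in the mutant. A difference or median was counted as moved when it shifted by more than 0.32 log2 units, the SD between probe sets of 1 gene, and a count when it changed by over 1.5 times. Scaling the arrays by median centring, quantile normalization or loess moved none of the 4. The constant added before the logarithm moved the dim ones: ATHSP22.0 was at -5.07 with 1, -3.43 with 64 and -5.12 with none, and AT1G52560 at -4.15, -2.85 and -4.18. The median of the 4 was -3.06 with 64. The counts at 2-fold, 377 lower and 127 higher, were 193 and 14 with 64, 114 and 10 past the expression filter, 964 and 668 at 1.5-fold, 135 and 13 at 3-fold, 546 and 287 with 1, and 559 and 311 with none. The filter and thresholds change the probe sets counted by construction. The list medians of the other families kept their sign and moved by less than 0.32 under the scalings, with 1 or 64 added and past the filter, and were not recomputed with none added. Without detection calls, signal over background is unknown, which limits ATHSP22.0 and AT1G52560 most. The alternatives for mitochondrial chaperones were not run, since none was named alone by a probe set.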
